A study of Mus musculus with 21 samples.

Results

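The change of gene expression in Pax6 Sey mutants was set against the change in Pax6 Leca2 mutants, both measured in the rostral cortex of the cerebrum on embryonic day 14 of the mouse. Of the 21 arrays of the study, 14 belong to these lines and were chosen by their labels. The groups were 4 Pax6 Sey mutants and 3 wild type littermates, both of the strain C57BL/6J x DBA/2J (B6D2F1), and 4 Pax6 Leca2 mutants and 3 wild type littermates, both of the strain 129 S6. All embryos were untreated, and the labels give neither the zygosity nor the sex. The mutations are carried in the germ line, so every cell of the embryo has them. The strain differs between the lines and cannot be told apart from the allele in the difference between the changes.

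Pax6 is a transcription factor of the paired box family that radial glia, the stem cells of the developing cortex, make in a gradient across the pallium. It binds DNA through a paired domain, whose subdomains PAI and RED each contact DNA, and through a homeodomain. In the cortex it is known for raising proneural genes that start glutamatergic neurogenesis, for keeping ventral, GABAergic fates out of the pallium, and for restraining proliferation. Sey is a truncating allele that is regarded as a loss of function, and Leca2 changes an amino acid of the RED subdomain. The comparison asks how much of the response to the loss of function is also seen with the RED allele, and which genes it leaves alone.

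Values are log2 RMA expression values, so a difference of 1 is a doubling. A change is the mean of mutants minus the mean of littermate controls, and the difference is the Sey change minus the Leca2 change. Errors are standard errors (SE) of the fit, and a gene was called at a limma adjusted p under 0.05 over 13850 genes. Of the 9 markers chosen for dorsal telencephalon, 8 were tested, and they lay between 9.14 (Emx1) and 13.88 (Fabp7) in every array. Array medians were 6.03 to 6.07 in the Sey line and 6.12 to 6.18 in the Leca2 line, so levels are compared only within a line. From the sex-linked genes, there were 3 females and 1 male among the Sey mutants, against 3 males among their controls, and 2 of each sex among the Leca2 mutants, against 3 females among their controls. In tissue arrays, fewer cells of a type and less RNA per cell cannot be told apart. Nothing in the labels says how the replicates were bred beyond littermates, so p-values measure the spread between these embryos.

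The Sey allele changed many genes and the Leca2 allele few. In Sey mutants 2791 genes were called, 20.2% of those tested, of which 1488 (10.7%) were higher and 1303 (9.41%) lower. In Leca2 mutants 66 genes were called (0.477%), 24 higher (0.173%) and 42 lower (0.303%). At an unadjusted p under 0.05, 531 of the 13850 genes tested were higher and 417 lower in Leca2 mutants, which is the background for such counts in the lists below. The median SD within a group over all genes was 0.0960 in Sey mutants, against 0.0752 in Sey controls, and 0.0988 in Leca2 mutants, against 0.0883 in Leca2 controls. The fit pools this spread over all groups. The difference between the changes was called for 927 genes (6.69%), positive for 475 (3.43%) and negative for 452 (3.26%). Of the 927, 895 were genes whose Sey change was called and whose Leca2 change was smaller. With all 129 S6 controls of the study as Leca2 controls, the split was 617 positive and 300 negative. In that setting the median Leca2 change over all genes was -0.09, against 0.01 with the littermates, so the split includes a shift over all genes. The number of called differences changed with a sex term and with single arrays. With the sex of the embryo as a term 293 genes were called, of which 285 were among the 927. Sex is unbalanced between mutants and controls in both lines, so it cannot be fully told apart from the alleles. The median SE of the difference was 0.139 with that term, against 0.117 without it. Without Sey control 1 the number was 582, and without Leca2 control 1 it was 529. The Leca2 count was 40 without Leca2 mutant 2.

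Where both alleles changed a gene, they changed it in the same direction. Called in both lines were 45 genes, 12 higher and 33 lower in both, and limma called none in opposite directions. At an unadjusted p under 0.05 in both lines, 425 genes went the same way and 48 opposite ways. These 45 make up 68.2% of the genes called in Leca2 and 1.61% of those called in Sey. With no test, across the 2791 genes called in Sey, the Leca2 change had the sign of the Sey change for 1997 genes (71.6%), against 58.7% over all genes tested. A line through the origin gave a slope of 0.166 of the Leca2 change on the Sey change, with a Pearson r of 0.54 across genes, which are not independent replicates. The slope was 0.142 for Sey changes under 0.5, 0.165 for 0.5 to 1, 0.162 for 1 to 2 and 0.184 for at least 2. It was 0.163 for genes higher and 0.17 for genes lower in Sey. Of these genes, Rlbp1 lay farthest from 0 in both lines, and without Rlbp1 the slope was 0.155.

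**Figure D1:**
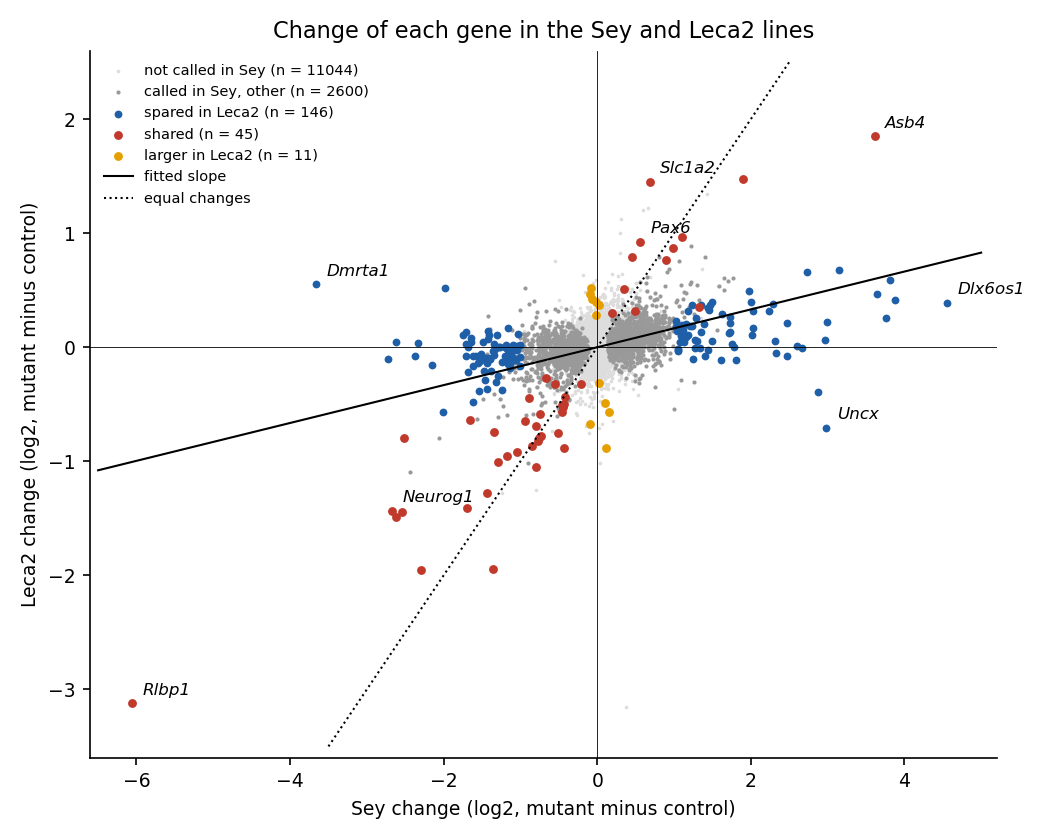
Each point is a gene, with its Sey change on the x axis and its Leca2 change on the y axis (log2, mutants minus littermate controls); sex-linked genes are not drawn. The solid line has the fitted slope of 0.166 and the dotted line marks equal changes; the 146 spared genes have Leca2 changes between -0.70 and 0.68 out to Sey changes beyond 4, and the 45 shared genes lie mostly between the solid and the dotted line or beyond it.

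The slope was also taken for each array, as the size of the Sey pattern in that array relative to the controls of its line. The Sey mutants had slopes of 1.007, 0.946, 1.027 and 1.020 and their controls -0.035, 0.027 and 0.007. The Leca2 mutants had slopes of 0.183, 0.175, 0.079 and 0.227, with a mean of 0.166 and an SD of 0.063, and their controls 0.096, -0.090 and -0.005. The Sey slopes are a description, because those arrays chose the genes. In the Leca2 line the groups overlapped, since mutant 3 lay below control 1. Leaving out each of the 14 arrays moved the slope between 0.120, without Leca2 control 2, and 0.215, without Leca2 control 1.

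**Figure D2:**
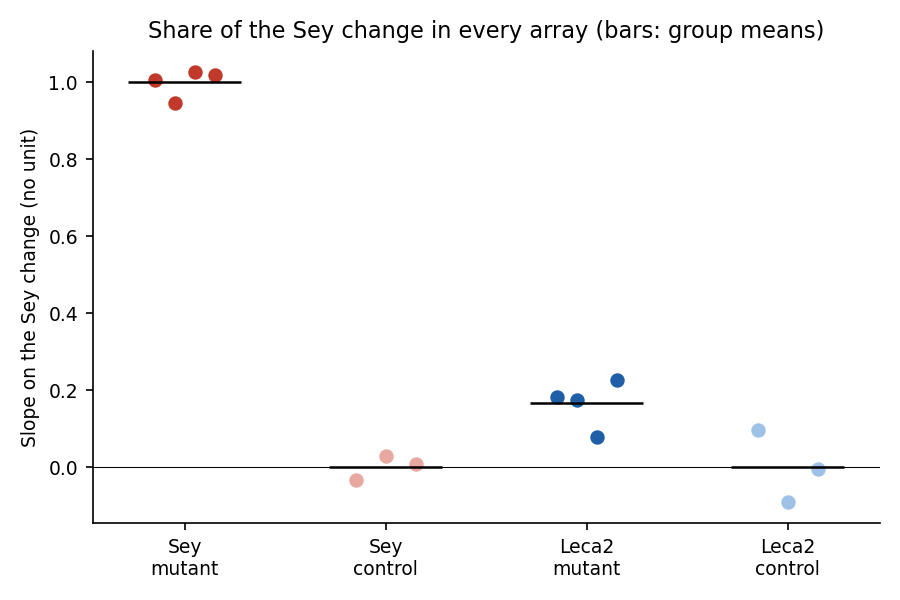
Slope of each array's deviation from the mean of the controls of its line on the Sey change, over the 2791 genes called in Sey (no unit; points are arrays, bars are group means). The 4 Leca2 mutants lie between 0.079 and 0.227 and the 3 Leca2 controls between -0.090 and 0.096.

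Of the 2791 genes called in Sey, 1861 were called neither in Leca2 nor in the difference. The median size of the Sey change was 0.314 for these 1861, against 0.391 for all 2791. A second contrast asked which genes depart from the common ratio, as the Leca2 change minus 0.166 times the Sey change. It called 42 genes (0.303%), of which 25 were called in Sey with a Leca2 change above the ratio, 2 were called in Sey with one below it, Gbx2 and Apip, and 15 were not called in Sey. With every group above the filter level there were 18, 1 (Apip) and 13; where a group lies at that level, as in Gbx2 and Rlbp1, the ratio of the changes has no reading. This contrast was added after the data were seen, with the ratio estimated from the same genes.

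Among the genes lowered by both alleles were proneural factors. Neurog1, a basic helix-loop-helix factor that starts neurogenesis in the dorsal telencephalon, had 5.42, 5.62, 5.40 and 5.66 in Sey mutants, against 8.26, 8.0 and 8.33 in Sey controls. It had 8.0, 7.56, 7.19 and 7.76 in Leca2 mutants, against 9.31, 8.95 and 8.93 in Leca2 controls. In both lines every mutant lay below every control. Neurog1 fell by 2.67 ± 0.15 in Sey mutants (limma adjusted p = 5.95e-10) and by 1.43 ± 0.15 in Leca2 mutants (adjusted p = 3.55e-05), and the difference was -1.24 ± 0.22 (adjusted p = 0.0014). Neurod4, a factor of the same family that acts in committed precursors, followed the same order. It had 5.13, 4.88, 4.72 and 4.88 in Sey mutants, against 7.36, 7.50 and 7.71 in Sey controls, and 6.87, 6.54, 6.36 and 6.72 in Leca2 mutants, against 8.20, 8.06 and 8.08 in Leca2 controls. No mutant overlapped a control of its line. All Sey mutants lay at or below the filter level, so the Sey fall was at least 4.38-fold, with a Leca2 change of -1.49 ± 0.13 (adjusted p = 3.11e-06). The difference was -1.13 ± 0.18 (adjusted p = 5.18e-04).

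Neurog2, the main proneural factor of the cortex, fell in Sey and was not called in Leca2. It had 10.60, 11.0, 10.49 and 10.75 in Sey mutants, against 12.35, 12.29 and 12.33 in Sey controls. In Leca2 mutants it had 12.01, 11.92, 11.74 and 12.12, against 12.50, 12.39 and 12.40 in Leca2 controls. The groups did not overlap in either line. It fell by 1.61 ± 0.12 in Sey mutants, and the Leca2 change of -0.48 ± 0.12 did not pass (adjusted p = 0.1). The difference was -1.13 ± 0.17 (adjusted p = 3.06e-04). Of the 21 proneural factors and partners tested, 6 rose and 11 fell in Sey mutants, 3 fell in Leca2 mutants, and 4 had a positive and 7 a negative called difference. The third called in Leca2 was Id4, a helix-loop-helix inhibitor without a DNA-binding region, which fell by 0.47 in Sey and by 0.57 in Leca2 (difference 0.11 ± 0.13, adjusted p = 0.75). Its relatives Id3 and Id1 rose in Sey, by 1.76 and 1.15, and differed from Leca2 changes of 0.60 and 0.47, which did not pass. The list's median change was -0.28 in Sey and 0.02 in Leca2, against 0.00 and 0.01 over all genes tested.

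Rlbp1, which encodes a retinaldehyde-binding protein known from Müller glia, had the largest fall in each line apart from sex-linked genes and AI506816, whose Leca2 change of -3.15 ± 0.87 did not pass (adjusted p = 0.18). It had 4.44, 4.60, 4.45 and 4.28 in Sey mutants, against 10.54, 10.43 and 10.52 in Sey controls. In Leca2 mutants it had 7.08, 6.77, 6.88 and 6.97, against 10.04, 10.17 and 9.93 in Leca2 controls. All 4 groups were tight and no mutant came near a control. The Sey mutants lay at or below the filter level, which gives a fall of at least 34.5-fold, and the Leca2 change was -3.12 ± 0.09 (adjusted p = 1.90e-14). The difference was -2.93 ± 0.12 (adjusted p = 3.15e-11).

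Cxcl12, a chemokine that guides interneurons and Cajal-Retzius cells, had 7.29, 6.98, 6.34 and 6.77 in Sey mutants, against 9.37, 9.39 and 9.41 in Sey controls. It had 7.91, 8.05, 7.91 and 7.34 in Leca2 mutants, against 9.06, 9.42 and 9.26 in Leca2 controls. Mutants lay below controls in both lines. It fell by 2.55 ± 0.18 in Sey and by 1.44 ± 0.18 in Leca2, with a difference of -1.10 ± 0.25 (adjusted p = 0.0098). That difference did not pass with the sex of the embryo as a term (-0.81, adjusted p = 0.17) or with the mean over the probe sets of the gene (-0.53, adjusted p = 0.09). Aldoc, a glycolytic aldolase of radial glia and astrocytes, fell by 1.66 and by 0.64, with a called difference of -1.03. Jph1, which encodes a junctional membrane protein, had a Sey fall of at least 3.54-fold and fell by 0.80 in Leca2.

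**Figure D3:**
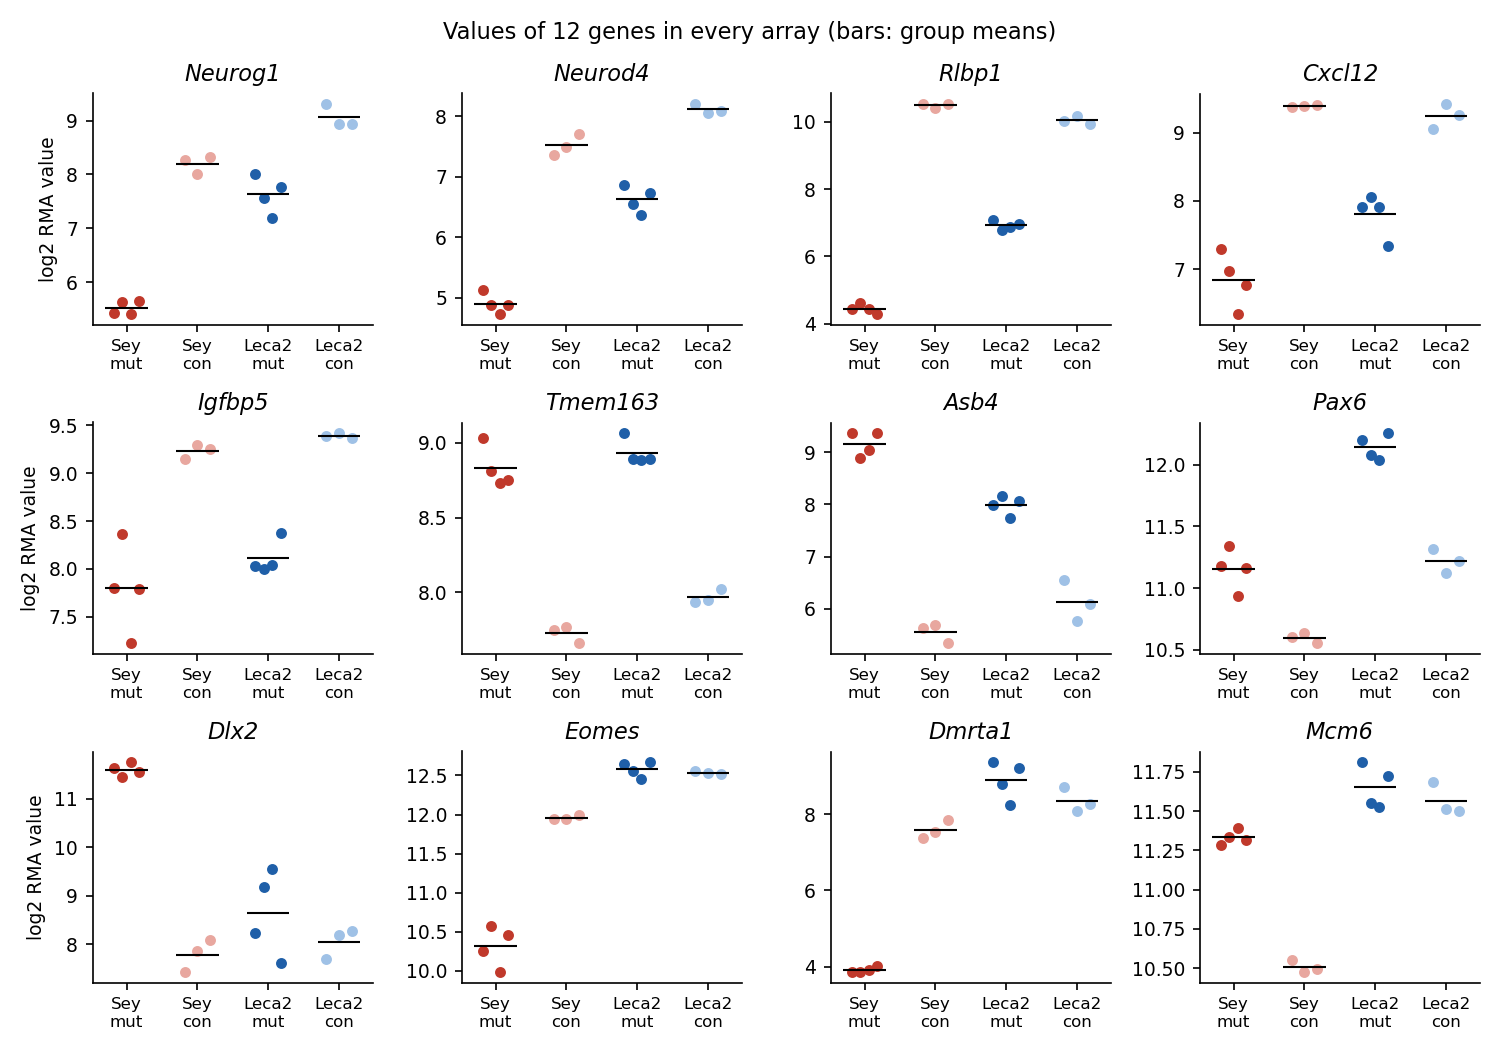
Log2 RMA values (y axis) of 12 genes in each array, for Sey mutants (mut), Sey controls (con), Leca2 mutants and Leca2 controls; points are arrays and bars group means. Neurog1, Neurod4, Rlbp1, Cxcl12 and Asb4 moved in both lines by unequal amounts, Igfbp5, Tmem163 and Pax6 moved in both, and the Leca2 mutants of Dlx2, Eomes, Dmrta1 and Mcm6 overlap their controls.

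Of the 45 shared genes, the difference was called for 11 and not for 34, and of these 34 the Leca2 change was the larger for 19. A missing call does not show equal changes. For 8 of the 34 the 95% interval of the difference excluded 0, and in the 28 with every group above the filter level the Leca2 change was 0.583 to 2.12 times the Sey change. Igfbp5, a secreted binder of insulin-like growth factors, had 7.81, 8.37, 7.23 and 7.79 in Sey mutants, against 9.15, 9.29 and 9.25 in Sey controls. It had 8.03, 8.0, 8.04 and 8.37 in Leca2 mutants, against 9.39, 9.42 and 9.37 in Leca2 controls. Every mutant lay below every control of its line. The changes were -1.43 ± 0.16 and -1.28 ± 0.16, with a 95% interval of the difference of -0.64 to 0.33. Lmo7, an actin-binding LIM domain protein, changed by -1.70 ± 0.20 and -1.41 ± 0.20, with an interval of -0.88 to 0.29. Slc14a1, a urea transporter, fell in both lines (adjusted p = 3.15e-08 in Sey and 6.00e-06 in Leca2), but all mutants of both lines lay at or below the filter level, so the falls are lower bounds and their ratio has no reading. Gna14, a G protein alpha subunit, had a Sey fall of at least 1.66-fold and a Leca2 change of -1.94 ± 0.17.

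Among genes raised in both lines, Tmem163, a zinc transporter of vesicle membranes, had 9.03, 8.81, 8.73 and 8.75 in Sey mutants, against 7.75, 7.77 and 7.66 in Sey controls. It had 9.07, 8.89, 8.89 and 8.89 in Leca2 mutants, against 7.94, 7.95 and 8.02 in Leca2 controls. Each mutant exceeded each control of its line. The changes were 1.10 ± 0.09 and 0.97 ± 0.09, with a 95% interval of the difference of -0.14 to 0.42. Asb4, a subunit of ubiquitin ligases, rose to a different extent. It had 9.36, 8.89, 9.03 and 9.37 in Sey mutants, against 5.63, 5.68 and 5.34 in Sey controls, and 7.98, 8.16, 7.75 and 8.06 in Leca2 mutants, against 6.55, 5.76 and 6.10 in Leca2 controls. The groups were apart in both lines, with rises of 3.61 ± 0.23 and 1.85 ± 0.23 and a difference of 1.76 ± 0.32 (adjusted p = 0.0018). Carhsp1, which binds RNA, rose by 1.33 and 0.36, with a called difference of 0.97. The proapoptotic genes Hrk and Bcl2l11 rose in both lines, by 0.99 and 0.90 in Sey and by 0.87 and 0.76 in Leca2. A weaker probe set of Bcl2l11, tested on its own, rose by 0.67 in Sey and by 0.25 in Leca2, the latter not called. Its difference of 0.42 was called (limma adjusted p = 0.030). The other probe sets of Bcl2l11 were called in both lines.

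The transcript of Pax6 itself was higher in mutants of both lines. It had 11.18, 11.34, 10.94 and 11.16 in Sey mutants, against 10.60, 10.64 and 10.55 in Sey controls. In Leca2 mutants it had 12.20, 12.08, 12.04 and 12.26, against 11.31, 11.12 and 11.22 in Leca2 controls. Every mutant exceeded every control of its line. The rises were 0.56 ± 0.09 in Sey and 0.93 ± 0.09 in Leca2, and their difference of -0.37 ± 0.13 did not pass (adjusted p = 0.1), with a 95% interval of -0.64 to -0.10. These values are of the brightest probe set. A weaker one had the other order, with 0.57 in Sey and 0.34 in Leca2, the latter not called. Another had 0.19 in Sey, not called, and 0.42 in Leca2, and the remaining one kept the order of the brightest. The level of the transcript does not show whether the coding sequence carries a mutation, so it does not check the labels. Paupar, a non-coding RNA transcribed beside Pax6, had both control groups at or below the filter level and rose by at least 2.18-fold in Sey and at least 1.23-fold in Leca2. The arrays and labels give no strand-specific check of the 2 genes.

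Ventral telencephalic genes formed the largest rises that Leca2 spared. A gene was counted as spared where the Sey change was at least 1, the difference was called with a smaller Leca2 change, Leca2 was not called, and the 95% interval of the Leca2 change lay within 0.5 times the Sey change on either side of 0. By this rule 146 of the 223 genes called in Sey with a change of at least 1 were spared, 68 higher and 78 lower in Sey. With the sex of the embryo as a term 98 were spared, of which 93 were among the 146. The name covers smaller changes as well as none: for 22 of the 146 the 95% interval of the Leca2 change excluded 0, and for 25 the Leca2 change was over 0.166 times the Sey change. Of those of the 146 with every group above the filter level, 0 were called off the common ratio, so that contrast does not set them apart from a Leca2 effect weaker by 1 factor. Of the 223, 18 were called in Leca2 and 41 were not called in the difference. Dlx2, a homeodomain factor that specifies GABAergic neurons, had 11.64, 11.44, 11.76 and 11.55 in Sey mutants, against 7.42, 7.85 and 8.09 in Sey controls. It had 8.23, 9.17, 9.55 and 7.61 in Leca2 mutants, against 7.70, 8.19 and 8.27 in Leca2 controls. The Sey groups were far apart, whereas in the Leca2 line mutants 2 and 3 lay above all controls and mutant 4 lay below all controls. The Sey change was 3.81 ± 0.35, the Leca2 change was 0.59 ± 0.35 (adjusted p = 0.87), and the difference was 3.22 ± 0.50 (adjusted p = 4.08e-04).

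Dlx5 had 10.70, 10.13, 10.60 and 10.29 in Sey mutants, against 6.38, 6.83 and 6.80 in Sey controls, and 7.02, 8.13, 8.25 and 6.80 in Leca2 mutants, against 6.96, 7.52 and 7.39 in Leca2 controls. Here too Leca2 mutants 2 and 3 exceeded the controls and mutants 1 and 4 did not. The difference was 3.50 ± 0.39 (adjusted p = 1.18e-05). Gsx2, which acts above the Dlx genes in ventral progenitors, had 9.0, 8.59, 9.31 and 8.87 in Sey mutants, against 5.65, 5.85 and 5.89 in Sey controls. Its values were 5.53, 6.34, 6.68 and 5.36 in Leca2 mutants, against 5.37, 5.23 and 5.29 in Leca2 controls, where all controls lay at or below the filter level. The difference was 2.47 ± 0.40 (adjusted p = 6.99e-04). Olig2, a helix-loop-helix factor of ventral progenitors, had 8.11, 8.01, 8.41 and 8.08 in Sey mutants, against 5.13, 5.90 and 5.25 in Sey controls. It had 7.48, 7.42, 6.96 and 7.22 in Leca2 mutants, against 6.72, 6.53 and 6.59 in Leca2 controls. Its groups were apart in both lines, but the Leca2 change of 0.66 ± 0.21 did not pass (adjusted p = 0.31, 95% interval 0.22 to 1.10).

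Of the 26 ventral and GABAergic genes tested, 14 rose in Sey, none was called in Leca2 (3 at an unadjusted p under 0.05), and 12 had a positive called difference and were all spared. They included Gad1, Gad2 and Slc32a1, which make and load the transmitter GABA, with Sey rises of 2.02, 1.75 and 1.80 beside Leca2 changes of 0.17, 0.02 and -0.11. The list's median change was 1.08 in Sey and 0.05 in Leca2. Its mean level was 7.79 to 8.31 in Sey mutants, against 6.44 to 6.68 in Sey controls, and 6.32 to 7.06 in Leca2 mutants, against 6.44 to 6.65 in Leca2 controls. The Leca2 mutants thus spanned the range of their controls on both sides. Of this list Isl1, a LIM homeodomain factor of striatal precursors, stood at 8.11 in Leca2 mutant 2 and at 4.85 to 5.79 in the other Leca2 mutants, against 4.44 to 4.76 in Leca2 controls. Whether such genes came from cells beyond the cortical border of the dissection was not tested.

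Other genes raised in Sey and spared in Leca2 were on the diencephalic and olfactory lists. Which cells made their transcripts was not tested. Of 7 diencephalic genes tested 3 rose in Sey, Gbx2, Uncx and Lhx9, all with a called positive difference, 1 fell, Tcf7l2 (-0.39), and none was called in Leca2 (1, Uncx, at an unadjusted p under 0.05). The difference of Lhx9 did not pass in 8 of 29 alternatives, with the highest adjusted p of 0.287 with the sex of the embryo as a term, and in 7 on leaving out 1 array. Gbx2, a homeobox gene of the thalamus, had 6.51, 6.65, 6.50 and 6.80 in Sey mutants, against 4.42, 4.28 and 4.14 in Sey controls. It had 3.95, 4.09, 3.94 and 4.08 in Leca2 mutants, against 4.06, 4.04 and 4.12 in Leca2 controls. Only the Sey mutants had a value above the filter level, so the Sey rise was at least 2.34-fold, and the difference was 2.39 ± 0.12 (adjusted p = 3.65e-10). Of 6 olfactory genes tested 4 rose in Sey and none was called in Leca2, also at an unadjusted p under 0.05 (0). Sp8, a zinc finger factor of the olfactory bulb and the rostral patterning centre, had 10.18, 9.66, 10.63 and 10.39 in Sey mutants, against 6.89, 7.70 and 7.42 in Sey controls. It had 7.06, 7.25, 7.26 and 7.12 in Leca2 mutants, against 7.99, 7.28 and 7.44 in Leca2 controls. The Leca2 mutants lay just below their controls, with a change of -0.39 ± 0.24 that did not pass (adjusted p = 0.88), and the difference was 3.27 ± 0.34 (adjusted p = 5.74e-06).

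Wls, which carries Wnt proteins to the cell surface, had 8.43, 8.86, 8.72 and 8.80 in Sey mutants, against 5.69, 5.83 and 5.63 in Sey controls. It had 6.15, 6.15, 6.34 and 6.17 in Leca2 mutants, against 6.01, 5.71 and 6.22 in Leca2 controls. The Sey groups were well apart and the Leca2 groups overlapped. The difference was 2.76 ± 0.21 (adjusted p = 1.34e-07), and the other probe sets of Wls gave the same direction. Cajal-Retzius cells are early neurons at the cortical surface. Of their 12 genes 8 rose in Sey, none was called in Leca2 (2 at an unadjusted p under 0.05) and 6 had a called positive difference. Not called in Sey were Reln (0.27), Nhlh2 (0.45), Ndnf (0.04) and Car10 (0.07). Whether the number of these cells changed was not tested. Ebf2 rose by 1.0, beside a Leca2 change of -0.54 (adjusted p = 0.3), and Lhx5 rose by 1.15, beside 0.09.

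Genes of intermediate progenitors, the dividing cells between radial glia and neurons, were mixed: of 19 tested 5 rose and 10 fell in Sey, and 5 of those that fell were spared. Eomes, the T-box factor that defines them, had 10.26, 10.57, 9.98 and 10.45 in Sey mutants, against 11.94, 11.94 and 11.99 in Sey controls. It had 12.64, 12.56, 12.45 and 12.67 in Leca2 mutants, against 12.56, 12.53 and 12.52 in Leca2 controls. Sey mutants lay over 1 log2 unit below their controls, while Leca2 mutants lay on both sides of theirs. The Sey fall was 1.64 ± 0.10, the Leca2 change was 0.04 ± 0.10 with a 95% interval of -0.16 to 0.25, and the difference was -1.69 ± 0.14 (adjusted p = 2.49e-07). Unc5d, a netrin receptor of multipolar cells, had 6.73, 7.28, 6.74 and 7.0 in Sey mutants, against 9.35, 9.19 and 9.29 in Sey controls, and 9.11, 9.21, 9.43 and 9.14 in Leca2 mutants, against 8.80, 9.49 and 9.26 in Leca2 controls. The Leca2 groups overlapped, and the difference was -2.38 ± 0.23 (adjusted p = 2.01e-06). None of the 19 was called in Leca2 (3 at an unadjusted p under 0.05), with changes down to -1.10 in Tfap2d (adjusted p = 0.35), and 3 differences were positive and 7 negative.

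The most negative called difference was that of Dmrta1, a doublesex-related factor of pallial progenitors. It had 3.86, 3.85, 3.92 and 4.02 in Sey mutants, against 7.37, 7.52 and 7.84 in Sey controls. It had 9.36, 8.79, 8.24 and 9.21 in Leca2 mutants, against 8.72, 8.08 and 8.26 in Leca2 controls. The Sey mutants lay at or below the filter level, a fall of at least 4.56-fold, and the Leca2 mutants overlapped their controls with a change of 0.55 ± 0.28 (adjusted p = 0.77). The difference was -4.22 ± 0.39 (adjusted p = 1.69e-06). The kinesin family gene Kif26b (Sey -2.37, Leca2 -0.08) and the phosphodiesterase gene Pde1b (Sey -2.15, Leca2 -0.16) were spared alike. Gcg, which encodes proglucagon, changed by -1.98 ± 0.19 in Sey and by 0.52 ± 0.19 in Leca2, where the change did not pass (adjusted p = 0.47), and the difference was -2.50 ± 0.27. Tmem87a had 8.26, 6.10, 6.19 and 6.16 in Sey mutants, against 8.29, 8.46 and 8.42 in Sey controls, so that 1 of 4 Sey mutants lay close to the controls. Its difference of -1.84 ± 0.46 did not pass without Leca2 control 1 (adjusted p = 0.051) or with the sex of the embryo as a term (adjusted p = 0.064).

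More genes of cortical projection neurons fell than rose in Sey. Of 26 tested, 3 rose and 15 fell in Sey, and 1 difference was positive and 10 were negative. None was called in Leca2, which is near the 0.477% called over all genes tested. At an unadjusted p under 0.05 there were 4 in Leca2, against 531 higher and 417 lower of the 13850 genes tested. Slc17a6, a vesicular glutamate transporter, had 9.12, 9.52, 9.13 and 9.37 in Sey mutants, against 10.38, 10.51 and 10.52 in Sey controls. It had 11.09, 11.15, 11.13 and 11.17 in Leca2 mutants, against 11.08, 11.06 and 11.20 in Leca2 controls. The difference was -1.20 ± 0.12 (adjusted p = 4.90e-06), with Leca2 groups that overlapped. Cux2, a homeodomain factor of upper layers, had a difference of -1.41 ± 0.22 (adjusted p = 4.08e-04), which with all controls of the strain 129 S6 was -0.80 and did not pass (adjusted p = 0.21). Tbr1, the T-box factor of early-born neurons, fell by 0.86 in Sey, beside a Leca2 change of -0.01, with a difference of -0.85 ± 0.23 (adjusted p = 0.031). Among 37 genes of adhesion and axon guidance 23 fell and 5 rose in Sey, and 1, Cxcl12, was called in Leca2. The classical cadherin Cdh4 had 8.95, 9.04, 8.76 and 8.61 in Sey mutants, against 10.59, 10.61 and 10.58 in Sey controls, and 10.14, 10.30, 10.84 and 10.04 in Leca2 mutants, against 9.95, 10.26 and 10.44 in Leca2 controls. Its Leca2 groups overlapped and its difference was -1.86 ± 0.24 (adjusted p = 6.97e-05).

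**Figure D4:**
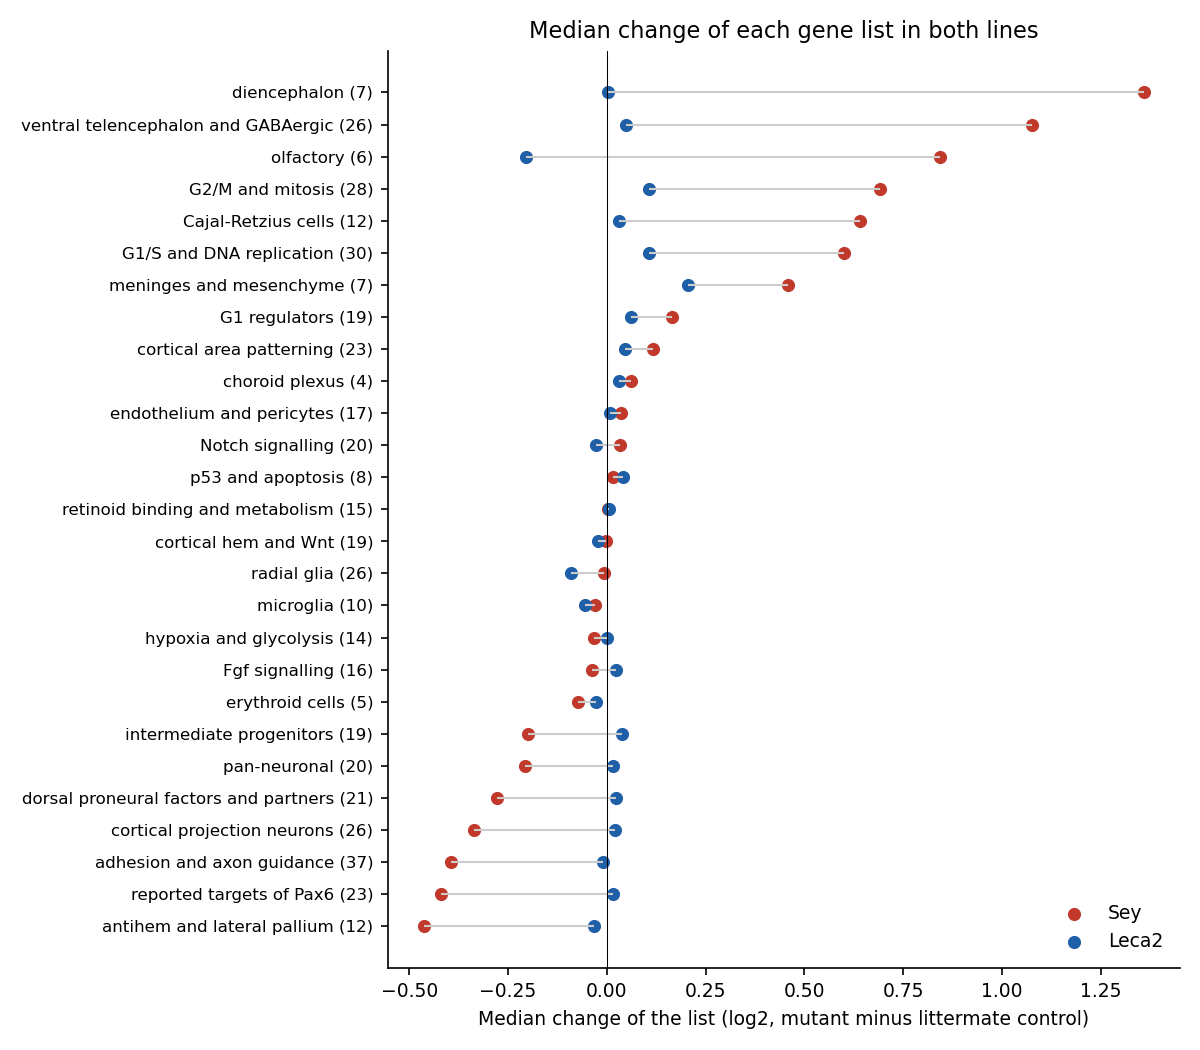
Median change of each gene list on the x axis (log2, mutants minus littermate controls) in the Sey line (red) and the Leca2 line (blue), with the number of genes tested in brackets; the sex-linked list is not drawn. The Sey medians run from -0.46 to 1.36 and the Leca2 medians from -0.20 to 0.20.

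Genes of replication and mitosis rose in Sey nearly throughout, and G1 regulators less uniformly. Of 30 genes of G1/S and DNA replication 29 rose in Sey, none was called in Leca2 (6 at an unadjusted p under 0.05) and 19 had a positive called difference. Of 28 genes of G2/M and mitosis all 28 rose in Sey, none was called in Leca2 (3 at an unadjusted p under 0.05) and 17 had a positive called difference. Of 19 G1 regulators 8 rose and 2 fell in Sey, Hmga2 (-1.68) and Mycn (-0.14), none was called in Leca2, also at an unadjusted p under 0.05 (0), and 3 differences were positive and 1 negative. The median changes of the replication and mitosis lists were 0.60 and 0.69 in Sey and 0.11 and 0.11 in Leca2. In Leca2 28 of the 30 and 28 of the 28 were above 0, against 7280 of the 13850 genes tested. The 6 and the 3 at an unadjusted p under 0.05 were all higher in Leca2, against 531 higher among the 13850. Genes of 1 phase move together within an embryo, so these counts are no replicates. By array, the mean level of the mitosis list was 10.46 to 10.56 in Sey mutants, against 9.75 to 9.83 in Sey controls, and 10.30 to 10.66 in Leca2 mutants, against 10.24 to 10.57 in Leca2 controls, where the groups overlapped.

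Mcm6, a subunit of the replicative helicase, had 11.29, 11.33, 11.39 and 11.32 in Sey mutants, against 10.55, 10.47 and 10.49 in Sey controls. It had 11.81, 11.55, 11.53 and 11.72 in Leca2 mutants, against 11.69, 11.51 and 11.50 in Leca2 controls. The Leca2 groups overlapped, and the difference was 0.74 ± 0.10 (adjusted p = 1.88e-04). Top2a, the topoisomerase of mitotic chromosomes, had 12.14, 12.12, 12.04 and 11.98 in Sey mutants, against 11.14, 11.19 and 11.16 in Sey controls. Its values were 12.27, 12.20, 12.13 and 12.39 in Leca2 mutants, against 12.17, 11.88 and 12.21 in Leca2 controls, again with overlap. The difference was 0.75 ± 0.12 (adjusted p = 5.34e-04), and with the mean over its probe sets it was 0.60 (adjusted p = 0.0505). Cdc6, which loads the helicase at origins, rose by 1.18 ± 0.12 in Sey beside a Leca2 change of 0.32 ± 0.12 (adjusted p = 0.47).

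Because these lists moved as groups, the stretch before the start of 3 members is shown, from RefSeq windows of mouse assembly GRCm38.p6. Capitals mark, in the replication genes, the E2F words TTTCCCGC, TTTGGCGC, TTTCGCGC and TTTGCCGC and, in the mitosis gene, the cell cycle homology word TTTGAA, each on either strand, and overlapping matches are joined.
Mcm6, chr1:128359706-128359855, minus strand: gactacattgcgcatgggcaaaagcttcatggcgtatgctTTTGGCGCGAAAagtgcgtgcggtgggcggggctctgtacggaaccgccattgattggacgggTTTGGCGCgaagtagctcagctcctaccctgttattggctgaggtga
Cdc6, chr11:98908001-98908150, plus strand: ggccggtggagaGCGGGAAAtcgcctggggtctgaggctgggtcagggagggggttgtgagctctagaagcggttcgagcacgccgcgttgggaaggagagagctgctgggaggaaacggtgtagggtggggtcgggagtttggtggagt
Top2a, chr11:99024190-99024339, minus strand: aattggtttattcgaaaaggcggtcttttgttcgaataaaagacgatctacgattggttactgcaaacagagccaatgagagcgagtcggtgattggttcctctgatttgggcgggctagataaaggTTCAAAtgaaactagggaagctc
Over windows from 250 bases before to 50 bases after the start, an E2F word was found for 10 of 25 replication genes with a window (40%), against 4.44% of 11114 genes tested. The word TTTGAA was found for 18 of 24 mitosis genes (75%), against 14.1%. The core TTCACGC of the paired domain's long consensus was in 0 of 41 windows of shared genes and in 3 of 111 windows of spared genes (2.70%), against 2.08%. A match is a description of letters and not a binding site.

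Radial glial genes were mixed. Of 26 tested, 5 rose and 8 fell in Sey, and 1, Aldoc, was called in Leca2. Slc1a3, a glutamate transporter of radial glia, had 7.31, 7.75, 7.44 and 7.78 in Sey mutants, against 8.82, 9.07 and 9.12 in Sey controls, and 8.73, 8.71, 8.84 and 8.87 in Leca2 mutants, against 9.17, 9.05 and 9.25 in Leca2 controls. The groups were apart in both lines, but the Leca2 change of -0.37 ± 0.10 did not pass (adjusted p = 0.16). The difference was -1.07 ± 0.14 (adjusted p = 1.03e-04). A probe set nearly as bright, tested on its own, had a called Leca2 change of -0.36 (limma adjusted p = 0.034). The remaining probe sets of Slc1a3 were not called in Leca2. Sox1, a factor of neural progenitors, rose by 1.24 ± 0.09 in Sey beside 0.37 ± 0.09 in Leca2 (adjusted p = 0.094). Of 23 reported targets of Pax6, a list from general knowledge, 5 rose and 13 fell in Sey and 1, Rlbp1, was called in Leca2. Their mean level was 9.71 to 9.90 in Sey mutants, against 10.33 to 10.38 in Sey controls, and 10.35 to 10.40 in Leca2 mutants, against 10.50 to 10.51 in Leca2 controls, without overlap in either line. That mean holds Rlbp1, with its Leca2 change of -3.12. The median change of the list was -0.42 in Sey and 0.01 in Leca2, where 12 of the 23 changes were above 0, so the Leca2 mean does not show a fall of the list as a whole.

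Markers of non-neural cells gave called differences in the meningeal list and in none of the 4 others. None of 10 microglial, 5 erythroid, 17 endothelial and 4 choroid plexus genes was called in the difference by limma, against 6.69% of all genes tested. At an unadjusted p under 0.05 there were 0 of them, against 2657 of the 13850 genes tested. In lists this short, the lack of a call does not show equal changes. Of 7 meningeal and mesenchymal genes 3 rose in Sey, Crabp2, Prrx1 and Zic1, and 2 had a called difference, Crabp2 and Prrx1. The collagen gene Col1a2 of the same list went the other way, with -0.02 in Sey, 0.59 in Leca2 and a difference of -0.61, none of them called. The mean level of that list was 7.73 to 7.96 in Sey mutants, against 7.11 to 7.20 in Sey controls, and 7.80 to 7.94 in Leca2 mutants, against 7.50 to 7.85 in Leca2 controls. Its part in the result was not tested.

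A few genes moved more in Leca2 than in Sey. Called in Leca2 and in the difference with the larger change in Leca2 were 11 genes, none of them called in Sey. Itpa, a pyrophosphatase that clears inosine triphosphate, had 10.03, 10.08, 10.08 and 10.05 in Sey mutants, against 9.94, 9.83 and 10.04 in Sey controls. It had 8.54, 8.53, 8.73 and 9.34 in Leca2 mutants, against 9.55, 9.61 and 9.86 in Leca2 controls. The Sey groups overlapped and the Leca2 mutants lay below their controls, with a difference of 1.0 ± 0.24 (adjusted p = 0.014). Blvra, which reduces biliverdin, had 9.10, 8.65, 8.81 and 8.65 in Sey mutants, against 8.76, 8.63 and 8.56 in Sey controls, and 8.13, 7.99, 8.19 and 8.09 in Leca2 mutants, against 8.60, 8.76 and 8.65 in Leca2 controls. Its difference was 0.72 ± 0.17 (adjusted p = 0.012). Pdgfc, a platelet-derived growth factor, rose in Leca2 by 0.52 ± 0.11, with a difference of -0.61 ± 0.15 (adjusted p = 0.022). With the sex of the embryo as a term none of the 3 differences passed, and the number of such genes was between 2 and 9 on leaving out single arrays.

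The genes called in Leca2 were concentrated on the chromosome of Pax6. On chromosome 2 lay 16 of the 66 (24.2%), against 8.07% of the genes tested, and 10 of the 21 called in Leca2 and not in Sey. Among the 11 larger in Leca2 there were 4: Itpa, Blvra, Dnajc1 and Aqr. Within 100 tested genes on either side of Pax6 lay 8 of the 66 (12.1%), against 201 of the 13850 genes tested (1.45%). Whether these differences come with the chromosome segment that carries the mutation was not tested.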

How the data were processed

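Total RNA of 21 embryonic cortices was hybridized to Affymetrix arrays, 1 per sample; per the labels' protocols RNA came from the RNeasy Micro kit and was amplified and biotinylated. Analysed were the deposited log2 RMA values of the authors per probe set, per the submitters' processing notes; their version, settings and build are not given in the sources used. The number of arrays limits the precision. Of 45101 probe sets, 34945 named 1 gene, 932 several and 9160 none, besides 64 controls. Symbols and chromosomes come from RefSeq GRCm38.p6 (34741 matched).

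A probe set entered if 3 or more arrays exceeded the 40th percentile of their array (5.37 to 5.60, the filter level), and a gene was read by the brightest of its probe sets on average. Weaker probe sets of Neurog1, Jph1, Igfbp5, Lmo7 and Hrk gave smaller changes, which with each probe set on its own were called in neither line. Those of Aldoc and Carhsp1 were called in Sey and not in Leca2. That of Cxcl12 was called in both lines with smaller changes and a difference of 0.04. The weakest of Cux2 had a difference of -0.0025. The 6 groups of all 21 arrays were fitted in 1 limma model (lmFit, eBayes; limma 3.58.1, R 4.3.3; 15 residual and 3.54 prior degrees of freedom), two-sided, with Benjamini-Hochberg adjustment over 13850 genes for each contrast. The fit was tested on simulated data. If a group had no array above the filter level, a fold is given as a bound against that level. Slopes are least squares through the origin, with no test. Figures used matplotlib.

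Named genes were Pax6, the 10 largest differences in each direction, up to 10 spared, 8 shared and 8 larger in Leca2, and up to 4 per list by the p of the difference, with fewer printed. Id1, Id3, Id4, Carhsp1, Jph1, Cdc6, Isl1, Mycn, Tfap2d, AI506816, Tbr1, Gad1, Gad2, Slc32a1, Apip, Aqr, Reln, Ndnf, Car10, and the genes with opposite signs were named after their values were seen. The 28 lists, from general knowledge, and the members were chosen with earlier results of these data known. The alternatives tried were other filters, probe set rules, normalizations, variance models, array weights, a sex term, a replicate block, the 14 arrays alone, all 129 S6 controls, thresholds and leaving out each array.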

Additional observations from a re-analysis of the deposited data

Results flagged for a closer look

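The following differences between the Sey and Leca2 changes were called by limma and are the largest of their kinds. Of the 135 genes named by the rule 92 were called, against 6.69% of all genes tested. The rule picks most genes by their difference, so that share follows from the choice and is no result. The positive ones were Dlx6os1 (4.16), Uncx (3.69), Dlx5 (3.50), Dlx1 (3.47), Sp8 (3.27), Dlx2 (3.22), Slc18a2 (3.17), Dlx6 (2.90), Wls (2.76) and Vax1 (2.67). The negative ones were Dmrta1 (-4.22), Rlbp1 (-2.93), Lratd1 (-2.66), 9130024F11Rik (-2.62), Gcg (-2.50), Unc5d (-2.38), Kif26b (-2.29), Pde1b (-1.99), Cdh4 (-1.86) and Tmem87a (-1.84). With the larger change in Leca2, Itpa (1.00), Blvra (0.72), Dnajc1 (0.59) and Myo6 (0.58) had positive and Pdgfc (-0.61), Tmem25 (-0.56), Susd2 (-0.48) and Pcp4 (-0.41) negative differences. Where a group lay wholly at or below the filter level, as in Slc18a2, Dlx6, Uncx, Dmrta1 and Rlbp1, the size is that of the fit and no bound.

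In 16 of 262 tests of the 4 mutant arrays of a line, 1 array stood far from the other three by Dixon's criterion at 95%, which chance gives in about 1 of 20. In Leca2 mutant 3 these were Wls at 6.34, Lmo7 at 7.69, Gadd45g at 10.54, Pcna at 13.31, Cdk1 at 11.05, Clic6 at 6.42 and Hba-x at 8.33. In Leca2 mutant 1 it was Tmem163 at 9.07, in mutant 2 Jag1 at 7.87, and in mutant 4 Igfbp5 at 8.37 and Tie1 at 6.26. In Sey mutant 1 they were Tmem87a at 8.26 and Csf1r at 9.10, in mutant 3 Spry2 at 8.44 and Zic1 at 12.31, and in mutant 4 Lratd1 at 7.48. Tmem87a in Sey mutant 1 stood 2.07 above the next Sey mutant. Of the 7 in Leca2 mutant 3, Pcna and Cdk1 belong to the cell cycle lists and were the lowest of the Leca2 mutants.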

How the results depend on the processing

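The slope of the Leca2 changes on the Sey changes stayed within the SD of the Leca2 mutant arrays under every alternative run, from 0.120 to 0.215 on leaving out single arrays and 0.134 over all genes tested. The count of called differences was 1411 at an adjusted p under 0.10, 293 with the sex of the embryo as a term, 42 for the departure from the common ratio, and 529 to 1072 on leaving out single arrays. Genes smaller in Leca2 were 569 with a change of at least 1.4-fold, 284 with the sex term and 515 to 1020 on leaving out single arrays. Sey calls were 1057 with a change of at least 1.4-fold and 1936 with the sex term. Leca2 calls were 107 for each probe set on its own, 121 with array weights, 236 with all 129 S6 controls, and 40 to 71 on leaving out single arrays. With all 129 S6 controls the median Leca2 change over all genes was -0.09. Shared genes were 83 with array weights and 115 with all 129 S6 controls. Spared genes were 233 for each probe set on its own, 98 with the sex of the embryo as a term and 121 to 158 on leaving out single arrays. Opposite genes were 3 with array weights (Arap2, Col16a1, Fgfbp3), 4 with all 129 S6 controls (Apip, Fgfbp3, Fzd1, Fzd7) and 1 at an adjusted p under 0.10 (Apip). Genes larger in Leca2 were 7 with the 14 arrays alone, 3 with a replicate block, 25 for each probe set on its own, 19 with array weights, 28 with all 129 S6 controls, 17 at an adjusted p under 0.10, 4 at 1.4-fold, 3 with the sex term, 7 without genes near Pax6 and on sex chromosomes, and 2 to 9 on leaving out single arrays. The cause was not tested. Of the values of named genes under the alternatives, 3654 kept their direction and side of the threshold, 185 fell short of it and 29 newly passed it. In 25, over 15 genes whose difference was not called, the direction turned, and 0 called genes turned. Deviations of arrays of the same number correlated at 0.027 to 0.105 in Sey and -0.054 to 0.338 in Leca2, too few values to settle whether they are paired. With a replicate block 796 differences and 37 shared genes were called and the slope was 0.161.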

Other observations

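Within the Leca2 mutants, ventral telencephalic genes differed between embryos. Dlx1 had 7.80, 9.37, 9.58 and 7.45 in Leca2 mutants, against 7.47, 8.41 and 8.52 in Leca2 controls, and Dlx6os1 had 6.34, 7.49, 7.56 and 5.65 in Leca2 mutants, against 5.89, 6.74 and 6.48 in Leca2 controls. Mutants 2 and 3, a male and a female, were the high ones in both genes, as for Dlx2 and Dlx5. Dmrt3, a relative of Dmrta1 in pallial progenitors, had 7.28, 7.45, 7.34 and 8.05 in Leca2 mutants, against 9.15, 8.48 and 8.71 in Leca2 controls, a change of -1.25 that did not pass (limma adjusted p = 0.058), beside a Sey change of -0.80. Zfp661, a zinc finger gene on chromosome 2, had 7.19, 7.15, 7.06 and 7.01 in Leca2 mutants, against 5.10, 6.41 and 6.43 in Leca2 controls, a called change of 1.12 (adjusted p = 0.015), and its difference from the Sey change did not pass (adjusted p = 0.12). Zfp661, Dmrt3 and Dlx6os1 were chosen here after their values were seen.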
